A study of Mus musculus with 3 samples.

Results

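The microRNAs of the miR-99/100 and miR-125 families were described in small RNA libraries made from HL-1, a line of mouse heart muscle cells that goes on beating in culture. The members were the hairpins Mir99a, Mir99b, Mir100, Mir125a, Mir125b-1 and Mir125b-2, which are 6 of 1115 named mouse hairpins searched, with both arms of each. An insert, the part of a read before the 3' adapter, belonged to them if it was 18 to 25 nt long and matched a hairpin exactly or with 1 to 2 untemplated bases at its 3' end. Such inserts made up 36108 of 7748874 reads in the library labelled siSrf1 and 40366 of 7013026 reads in the library labelled siSrf2, in 461 distinct sequences. The cells were harvested 48 h after transfection with siRNA and a lipid reagent (9 µl of a 20 µM siRNA stock). By their titles both libraries come from cells given an siRNA against Srf, the gene of serum response factor, which switches on many genes of muscle. The siRNA entries of the same samples differ from the titles: the library labelled siSrf1 has Srf si2 there, and the library labelled siSrf2 has siNon, the name of the unspecific siRNA. The remaining sample is titled siNon with the siRNA entry Srf si1, and it was not analysed here. Groups follow the titles, by which neither library is a control, whereas by the siRNA entries the library labelled siSrf2 would be one. HL-1 is a line that divides in culture, unlike adult heart muscle, and each group is 1 library, so no value has a replicate check.

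MicroRNAs guide Argonaute proteins to messenger RNAs mainly through bases 2 to 8, the seed. The miR-99/100 family is known for targets in growth control, among them Mtor and Igf1r. The miR-125 family is the vertebrate counterpart of lin-4, which was found in Caenorhabditis elegans as a timer of larval development, and it is linked to differentiation and to blood cell growth. In mammals members of both families lie in clusters with a let-7 hairpin between them. Of the arms of a hairpin usually 1 is kept in Argonaute, here the 5p arm, and the other, the passenger arm, is mostly degraded.

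The mature sequences of the 5p arms are shown because they define the families and make clear how few bases separate the members. They are taken from RefSeq (GRCm38.p6), written 5' to 3', with the seed in capitals.
miR-99a-5p: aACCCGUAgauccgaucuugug
miR-99b-5p: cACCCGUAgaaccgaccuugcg
miR-100-5p: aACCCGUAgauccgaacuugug
miR-125a-5p: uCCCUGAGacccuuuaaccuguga
miR-125b-5p: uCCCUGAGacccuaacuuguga
The 3 miRNAs of the miR-99/100 family share the seed ACCCGUA, and both miRNAs of the miR-125 family share the seed CCCUGAG. Counted from the 5' end, miR-100-5p differs from miR-99a-5p only by U16A. miR-99b-5p differs from miR-99a-5p by A1C, U11A, U16C and U21C, all outside the seed. miR-125b-5p is encoded by both Mir125b-1 and Mir125b-2, so its reads cannot be assigned to a hairpin.

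The 6 hairpins form 3 clusters in the NCBIM37 genome, all on plus strands. Mir99a (chr16:77599181-77599245) lies 656 bases before Mirlet7c-1, and Mir125b-2 (chr16:77646518-77646588) follows 46522 bases further on. Mir99b (chr17:17967152-17967221), Mirlet7e and Mir125a (chr17:17967767-17967851) are packed with gaps of 94 and 358 bases. Mir100 (chr9:41339508-41339587) is 5211 bases from Mirlet7a-2, which is 45114 bases from Mir125b-1 (chr9:41390009-41390085). In the GENCODE vM1 annotation Mir100 and Mir125b-1 lie in introns of the long noncoding RNA D230004N17Rik on the same strand, and Mir125b-1 also lies in an intron of 2610203C20Rik. Mir125a lies in an exon of Ncrna00085 on the same strand, and Mir99a in an intron of Gm11146 on the opposite strand. No annotated gene overlaps Mir99b or Mir125b-2.

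The libraries held 14911499 and 14518157 reads (siSrf1 and siSrf2), of which 5287177 and 4601916 were assigned to miRNAs. miR-1a-3p, the main miRNA of striated muscle, had 3305369 and 2368675 of these reads. Of the cardiac miRNAs, miR-499-5p had 73246 and 63333 reads, miR-208b-3p 824 and 860, and miR-208a-3p 65 and 60. The muscle miRNA miR-133a-3p had 6136.5 and 11075 reads, with reads shared between miRNAs divided. Its log2 ratio, siSrf1 over siSrf2, was -1.05, while that of miR-1a-3p was 0.28. Of miRNAs that mark other cells, miR-141-3p of epithelium and miR-294-3p of embryonic stem cells had 0 reads in both, which allows up to 3 reads, and miR-142a-3p of blood cells had 6 and 5 reads. The other arm of that hairpin, miR-142a-5p, was not among the listed markers but had 170 and 192 reads. Other listed markers were read: miR-223-3p of myeloid cells had 154 and 138 reads, miR-126a-3p of endothelium 1566 and 1230, miR-122a-5p of liver 37 and 60, miR-124a-3p of neurons 17 and 8, miR-206-3p of skeletal muscle 23 and 15, and miR-200c-3p of epithelium 2 and 4. So 7 of the 9 markers of other cells had reads, and their part in the results was not tested. Fragments in the sense of Srf mRNA had 20 reads in the library labelled siSrf1 and 1053 reads in the library labelled siSrf2. Fragments antisense to it had 16 and 177 reads in the same order, and the origin of either strand was not tested. The level of Srf mRNA is not measured by this assay.

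Both families were read at moderate depth, and miR-99b-5p was the most-read member. The miR-99/100 family made up 0.425% of miRNA reads in the library labelled siSrf1 (exact binomial 95% interval 0.419 to 0.430) and 0.566% in the library labelled siSrf2 (0.559 to 0.572). The miR-125 family made up 0.253% (0.249 to 0.258) in the library labelled siSrf1, against 0.307% (0.302 to 0.312) in the library labelled siSrf2. These are shares of the miRNA pool, in which fewer cells and less RNA per cell cannot be told apart. All intervals cover counting error only, since PCR copies cannot be told from separate molecules without molecular identifiers. Levels of different miRNAs are read numbers, which also depend on how well each sequence was ligated to the adapters.

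miR-99b-5p had 2478 reads per 1000000 miRNA reads (RPM) in the library labelled siSrf1 and 3469.6 in the library labelled siSrf2. miR-125b-5p had 1658 and 2074 RPM, and miR-99a-5p had 1434 and 1699.7, in the same order of libraries. miR-125a-5p followed with 836 and 917 RPM, and miR-100-5p with 267 and 396. The order of these 5 arms was the same in both libraries, with Poisson intervals of neighbours apart. By rank among all 675 miRNAs read, miR-99b-5p stood at place 26 in both, miR-99a-5p at 33 in both, and miR-100-5p at 64 in the library labelled siSrf1 and 61 in the library labelled siSrf2.

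**Figure D1:**
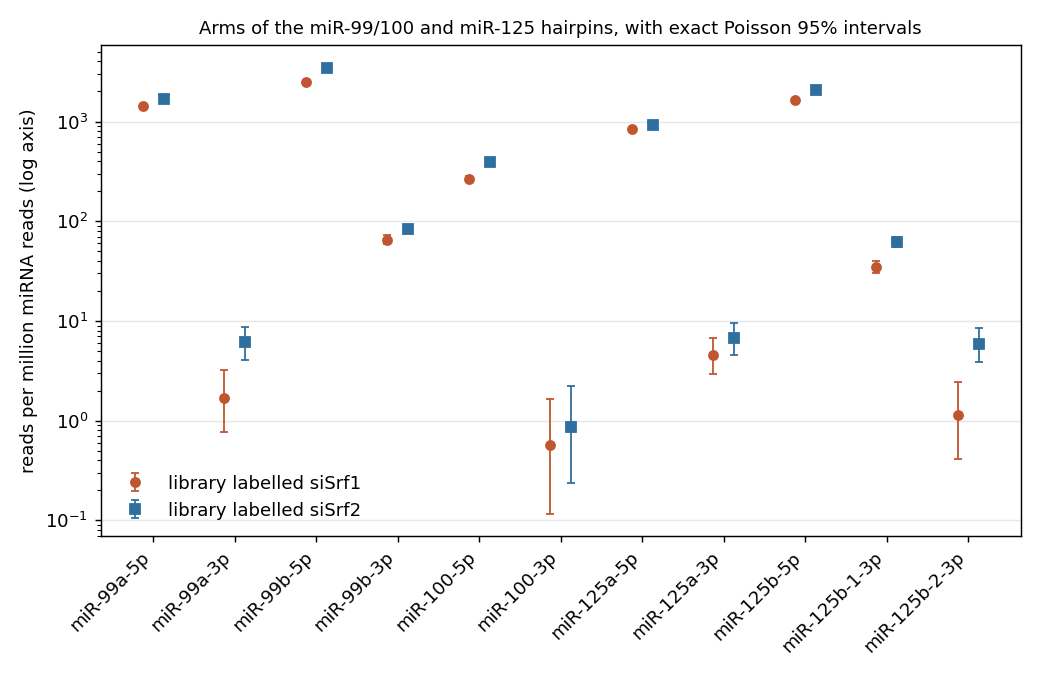
RPM on a log axis for the 11 arms of the 6 hairpins, with exact Poisson 95% intervals, circles for the library labelled siSrf1 and squares for the library labelled siSrf2. The 5p arms lie between 267 and 3469.6, the 3p arms miR-99b-3p and miR-125b-1-3p lie between 34.8 and 83.9, and the other 3p arms lie below 10.

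Every measured member arm was lower in the library labelled siSrf1, by less than 2-fold. An arm counted as measured with at least 50 reads over both libraries, which 8 of the 11 arms reached. It counted as past the size rule if the libraries were at least 2-fold apart and the whole interval of the log2 ratio, siSrf1 over siSrf2, lay on 1 side of 0. None of the 8 arms was past the rule (0 of 8), with the minimum of 50 reads, while 25.3% of all 261 measured miRNAs were past it as higher in the library labelled siSrf2 and 0% as higher in the library labelled siSrf1. No p-value can be given with 1 library per group. The median log2 ratio of the 8 arms was -0.42, beside -0.43 over all measured miRNAs, of which 207 lay below 0 and 54 above. A lower value in the library labelled siSrf1 was thus shared with most miRNAs, and miR-1a-3p, which alone takes most of the total, lay at 0.28.

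The family members lay at different distances. miR-99b-5p, with 13101 and 15967 reads, had a log2 ratio of -0.49 (-0.52 to -0.45). miR-100-5p, with 1411 and 1824 reads, lay lowest of the 5p arms at -0.57 (-0.67 to -0.47). miR-99a-5p, which differs from it by a single base, had 7582 and 7822 reads and lay at -0.25 (-0.29 to -0.20). In the miR-125 family miR-125b-5p had 8767 and 9546 reads and lay at -0.32 (-0.37 to -0.28). miR-125a-5p, with 4420 and 4221 reads, lay nearest to 0 at -0.13 (-0.20 to -0.07). Among the 90 other miRNAs with 1000 reads or more, the lower and upper quartiles of the log2 ratio were -0.73 and -0.04, and all 5 of these arms lay between them. The sign of the ratio depends on the scaling. TMM factors raised every log2 ratio by 0.49 and gave a median of 0.068 for the 8 arms and 0.061 for all measured miRNAs. Relative to that shift, miR-99a-5p (0.25) and miR-125a-5p (0.36) lay above 0 and miR-100-5p (-0.08) below it.

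**Figure D2:**
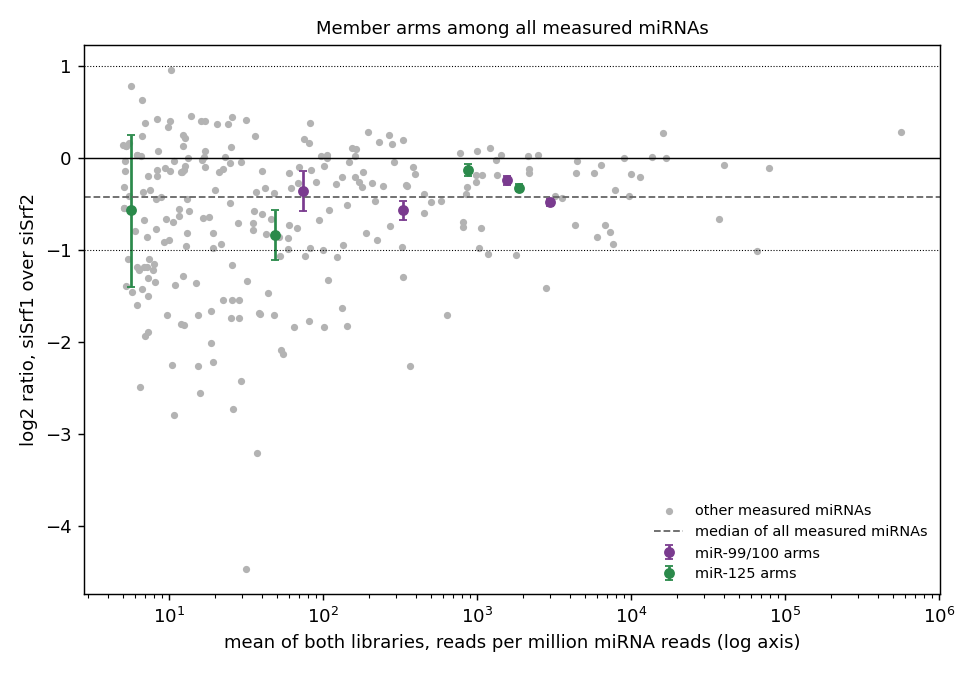
Log2 ratio, siSrf1 over siSrf2, against the mean level in both libraries (RPM, log axis) for 261 measured miRNAs, with the 8 member arms in color and their exact binomial 95% intervals. Dotted lines mark a 2-fold difference, and the dashed line marks the median of all measured miRNAs (-0.43), around which the member arms lie, all between the lower dotted line and 0.

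Ratios between members within a library need no scaling, and most of them differed between the libraries beyond counting error. The log2 ratios of the 90 other miRNAs with 1000 reads or more were spread as well, with quartiles of -0.73 and -0.04. Pairs among those miRNAs were not counted, so the differences are not shown to be particular to the families. miR-99a-5p was read 5.37 times as often as miR-100-5p in the library labelled siSrf1 (95% interval 5.08 to 5.69) and 4.29 times as often in the library labelled siSrf2 (4.07 to 4.51). miR-99b-5p was read 1.73 times as often as miR-99a-5p (1.68 to 1.78) in the library labelled siSrf1, against 2.04 times (1.99 to 2.10) in the library labelled siSrf2. The make-up of the miR-99/100 family therefore held more miR-99a-5p in the library labelled siSrf1, with 34.3% of the reads of the 3 arms (33.7 to 34.9), against 30.5% (30.0 to 31.1) in the library labelled siSrf2. miR-99b-5p took 59.3% and 62.3%, and miR-100-5p 6.39% and 7.12%. In the miR-125 family miR-125a-5p took 33.5% (32.7 to 34.3) in the library labelled siSrf1, against 30.7% (29.9 to 31.4) in the library labelled siSrf2, and miR-125b-5p the rest. Of 10 pairs among the 5 arms, the largest difference of log2 ratios between the libraries was that of miR-125a-5p and miR-100-5p, 0.44 (0.32 to 0.55). The pair miR-99b-5p and miR-100-5p had an interval that held 0 (0.08, -0.02 to 0.19).

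The let-7 arms encoded beside the members lay at other log2 ratios than these, and on chromosome 17 the members also lay apart from each other. let-7c-5p, let-7a-5p and miR-125b-5p have further hairpins, so on chromosomes 16 and 9 the values are not those of a cluster alone. On chromosome 17 miR-99b-5p lay at -0.49 and miR-125a-5p at -0.13, while let-7e-5p, from the hairpin between them, had 27691 and 46078 reads and lay at -0.93 (-0.96 to -0.91). Its 3p arm had 27 and 43 reads. On chromosome 16 miR-99a-5p lay at -0.25 and miR-125b-5p at -0.32, while let-7c-5p, a let-7 member that is also encoded by another hairpin, had 229720 and 402254 reads and lay at -1.01 (-1.016 to -1.001), past the size rule. Its passenger let-7c-1-3p had 2 and 2 reads. On chromosome 9 miR-100-5p lay at -0.57, and let-7a-5p, which other hairpins encode too, at -0.08 (-0.09 to -0.07). miR-125b-5p is encoded on chromosomes 9 and 16, so its value of -0.32 cannot be assigned to either cluster. let-7 sequences differ from each other by few bases, and the part of sequencing errors in their ratios was not tested.

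The passenger arms held at most a few percent of the reads of their hairpins. Their sequences from RefSeq are shown because miR-99a-3p and miR-99b-3p share a seed, in capitals, while those of the Mir125b copies identify the hairpin of origin.
miR-99a-3p: cAAGCUCGuuucuaugggucu
miR-99b-3p: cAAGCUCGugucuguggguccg
miR-100-3p: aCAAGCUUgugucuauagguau
miR-125a-3p: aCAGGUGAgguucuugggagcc
miR-125b-1-3p: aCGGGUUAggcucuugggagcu
miR-125b-2-3p: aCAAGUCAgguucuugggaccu
miR-99b-3p was the most-read of them, with 345 reads in the library labelled siSrf1 and 386 in the library labelled siSrf2, and a log2 ratio of -0.36 (-0.58 to -0.15). It made up 2.57% of Mir99b reads (2.31 to 2.85) in the library labelled siSrf1, against 2.36% (2.13 to 2.60) in the library labelled siSrf2, with overlapping intervals. miR-125b-1-3p had 184 and 286 reads and the lowest log2 ratio of the measured arms, -0.84 (-1.11 to -0.56). miR-125a-3p had 24 and 31 reads, at -0.56 with an interval that held 0 (-1.40 to 0.25). The main insert of miR-100-3p, read 4 times in all, began 1 base after the start of the RefSeq sequence, which moves its seed.

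The passenger share of 3 hairpins was lower in the library labelled siSrf1. For Mir99a it was 0.119% (0.054 to 0.225; 9 reads) in the library labelled siSrf1, against 0.357% (0.237 to 0.515; 28 reads) in the library labelled siSrf2. For Mir125b-1 it was 2.06% (1.77 to 2.37), against 2.91% (2.59 to 3.26) in the library labelled siSrf2. For Mir125b-2, set against the same shared 5p reads, it was 0.068% (0.025 to 0.149; 6 reads), against 0.282% (0.186 to 0.410; 27 reads) in the library labelled siSrf2. The intervals of these 3 shares do not overlap, while those of Mir99b, Mir100 and Mir125a do. Among 69 hairpins with 1000 reads or more of both arms together in each library, these 6 included, the share of the less-read arm was lower in the library labelled siSrf1 in 38, with intervals apart in 12, and lower with intervals apart in the library labelled siSrf2 in 5. Without tailed reads the shares were compared for Mir99a and for the summed 3p arms of miR-125b, not for Mir125b-1 and Mir125b-2 singly. Both 3p arms of miR-125b together held 2.12% (1.83 to 2.44) in the library labelled siSrf1, against 3.17% (2.84 to 3.54) in the library labelled siSrf2, but without tailed reads 1.02% (0.803 to 1.27) against 1.26% (1.04 to 1.53), with overlapping intervals. For Mir99a the intervals without tailed reads also overlap (siSrf1 0.048 to 0.247, siSrf2 0.237 to 0.559). With 1 mismatch allowed the Mir99a share was 1.21% (0.992 to 1.47) in the library labelled siSrf1, against 1.04% (0.841 to 1.28) in the library labelled siSrf2, so its direction turned with overlapping intervals. Of the 3p reads of miR-125b, 3.16% (1.17 to 6.75) in the library labelled siSrf1, against 8.63% (5.76 to 12.3) in the library labelled siSrf2 came from Mir125b-2. By this measure Mir125b-1 gave most of the passenger reads in both libraries, which need not hold for the 5p arm.

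The 5' ends, which set the seed, were nearly uniform. Between 98.7% and 99.9% of the reads of each 5p arm began at the main 5' end, and the intervals of the libraries overlapped in all 5 arms. Among 68 miRNAs with 1000 reads or more in each library, the median of this share was 99.05% in both libraries. It was larger with intervals apart in the library labelled siSrf1 in 7 and in the library labelled siSrf2 in 4. Uniform 5' ends with overlapping intervals were thus not particular to these families. miR-99a-5p had a minor form beginning 1 base earlier, with 1.07% in the library labelled siSrf1 (0.849 to 1.33) and 0.690% in the library labelled siSrf2 (0.519 to 0.900). Short inserts of 18 nt from the same 5' end fell outside the arm limits and were counted apart, 78 and 78 reads in Mir125a and 67 and 38 reads in Mir99a.

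The 3' ends varied between members and, by a few points, between libraries. The main insert equals the RefSeq sequence in miR-99a-5p, miR-99b-5p, miR-100-5p and miR-125b-5p, but in miR-125a-5p it stops 2 bases short of it. The ends read for miR-125a-5p are shown in full because they differ only in how far they run into the hairpin, and none of their bases is in capitals, which mark untemplated bases below.
miR-125a-5p, 22 nt: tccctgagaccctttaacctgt
miR-125a-5p, 23 nt: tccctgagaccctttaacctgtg
miR-125a-5p, 24 nt: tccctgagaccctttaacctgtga
The 22 nt form was 51.4% of miR-125a-5p reads (49.9 to 52.9) in the library labelled siSrf1, against 49.2% (47.6 to 50.7) in the library labelled siSrf2. The 23 nt form was 30.8% and 29.9%. The 24 nt form, which is the RefSeq sequence, was 6.47% (286 reads) in the library labelled siSrf1, against 10.4% (440 reads) in the library labelled siSrf2, which is a log2 ratio of -0.82 (-1.04 to -0.60). The longest form was thus lower in the library labelled siSrf1 by more than the 2 shorter ones, whose log2 ratios were -0.07 and -0.09. Shorter ends in that library were also frequent over other miRNAs, as given below, while ends past the main one were not counted there.

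In the other 5p arms the main end was taken by 72.5% to 83.5% of reads, with most of the rest 1 base shorter. miR-99a-5p ended 1 base early in 20.3% of reads (19.4 to 21.2) in the library labelled siSrf1, against 17.1% (16.3 to 17.98) in the library labelled siSrf2. It ended 2 bases early in 5.34% (4.85 to 5.87) and 3.66% (3.25 to 4.10) in the same order. Ends 1 base early had 2229 and 2395 reads in miR-99b-5p, 2.01 points more of its reads in the library labelled siSrf1. They made up 14.1% and 12.5% of miR-125b-5p, and the intervals were apart in both arms. These counts include reads with untemplated bases after the early end. Untailed inserts 1 base shorter had overlapping intervals in miR-99b-5p, 12.32% (11.76 to 12.89) and 11.52% (11.03 to 12.02) in the same order. They also overlapped in miR-125b-5p, 11.89% (11.22 to 12.58) and 10.96% (10.34 to 11.60). In miR-99a-5p they stayed apart, 17.16% (16.32 to 18.03) and 14.98% (14.20 to 15.79). miR-100-5p, which has the same last 6 bases as miR-99a-5p, had 18.4% (16.4 to 20.6) and 18.7% (16.9 to 20.6), with overlapping intervals at its lower depth. The shorter ends were not particular to these families. Among 68 miRNAs with 1000 reads or more in each library, the share ending 1 base early was larger in the library labelled siSrf1 with intervals apart in 24 and in the library labelled siSrf2 in 3.

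**Figure D3:**
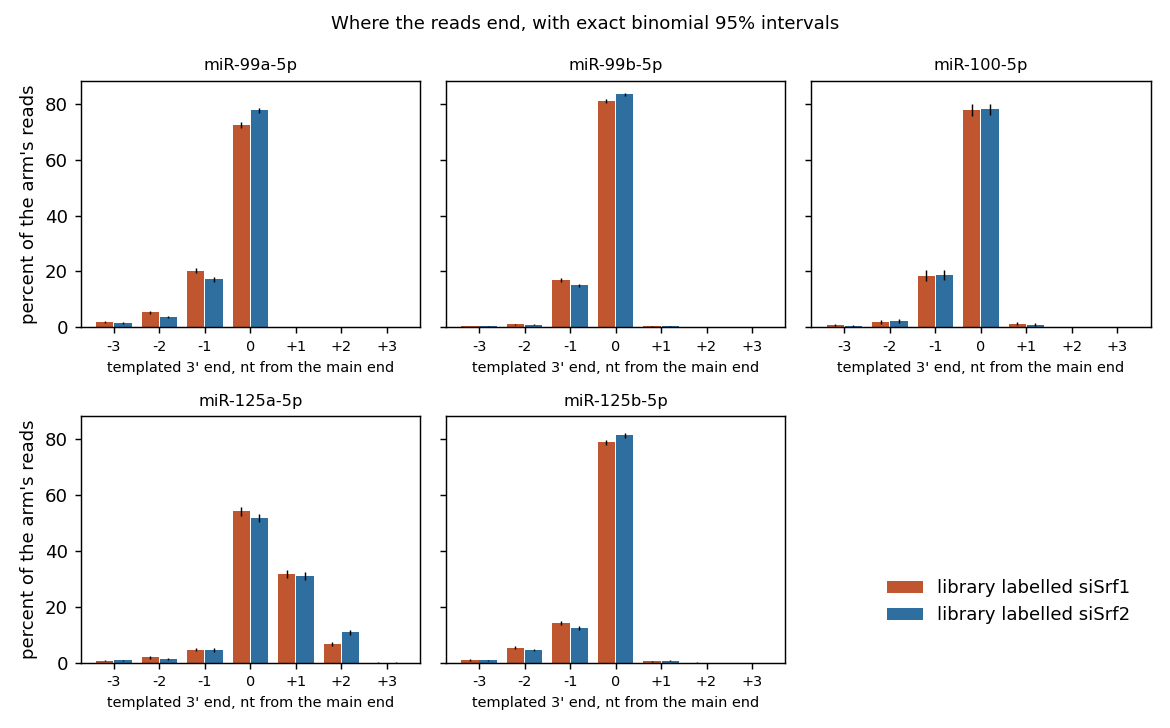
Percent of the reads of each 5p arm by the position of the last templated base, in nt from the main 3' end (0), in the library labelled siSrf1 (left bars) and the library labelled siSrf2 (right bars), with exact binomial 95% intervals. Reads of 4 arms pile up at 0 with a minor end at -1, while miR-125a-5p has a second end at +1 (31.9% and 31.0% with tailed reads) and another at +2 (6.72% and 10.8%).

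Untemplated bases, which terminal nucleotidyl transferases are known to add to the 3' ends of miRNAs, were frequent in the miR-99/100 family and rare in miR-125a-5p. The tailed forms of miR-99b-5p are shown because they differ from each other in how the libraries compare, with untemplated bases in capitals.
miR-99b-5p, 1 untemplated A: cacccgtagaaccgaccttgcgA
miR-99b-5p, 1 untemplated T: cacccgtagaaccgaccttgcgT
miR-99b-5p, 2 untemplated A: cacccgtagaaccgaccttgcgAA
The first had 1812 reads in the library labelled siSrf1 and 2396 in the library labelled siSrf2, the second 1350 and 1638. The form with 2 untemplated A had 216 and 508 reads, a log2 ratio of -1.43 (-1.67 to -1.20), set beside -0.47 (-0.52 to -0.43) for the untailed main insert with 7027 and 8479 reads. Reads with 2 untemplated bases of any kind were 3.95% of miR-99b-5p (3.62 to 4.29) in the library labelled siSrf1, against 5.70% (5.34 to 6.07) in the library labelled siSrf2. Over the 68 abundant miRNAs this share went both ways, larger with intervals apart in the library labelled siSrf1 in 10 and in the library labelled siSrf2 in 5.

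Reads with any untemplated base were 32.4% and 33.9% of miR-99b-5p, 29.3% and 28.2% of miR-100-5p, 23.0% and 21.4% of miR-99a-5p, 13.2% and 12.4% of miR-125b-5p, and 6.61% and 5.90% of miR-125a-5p (library labelled siSrf1, then siSrf2). Of the 5 arms, miR-99b-5p had intervals apart for this share (31.56 to 33.17, against 33.20 to 34.67). Over the 68 abundant miRNAs the share was larger with intervals apart in the library labelled siSrf1 in 15 and in the library labelled siSrf2 in 7. Among the 68 miRNAs miR-99b-5p stood at place 11 in the library labelled siSrf1 and 10 in the library labelled siSrf2, and miR-125a-5p at 66 and 64. A single A was the most frequent tail in all 5 arms, from 3.21% in miR-125a-5p to 19.8% in miR-100-5p in the library labelled siSrf1. miR-100-5p and miR-99a-5p end in the same bases. A single T followed 5.39% of miR-100-5p reads (4.27 to 6.70) and 8.52% of miR-99a-5p reads (7.90 to 9.17) in the library labelled siSrf1. In the library labelled siSrf2 it followed 6.74% (5.64 to 7.99) and 8.55% (7.94 to 9.19), with overlapping intervals. A single C was rare and was more frequent in the library labelled siSrf1 in miR-125b-5p (0.513% and 0.168%) and miR-99b-5p (0.466% and 0.244%), with intervals apart. Over the 68 abundant miRNAs a single C was also more frequent in the library labelled siSrf1 in 54, with intervals apart in 6, against 1 with intervals apart the other way. None of the tailed member reads matched the NCBIM37 genome at full length (0 reads).

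The passenger miR-125b-1-3p was tailed more often than any of the 5p arms of the families. Its most-read forms are shown with untemplated bases in capitals.
miR-125b-1-3p, untailed: acgggttaggctcttgggag
miR-125b-1-3p, 1 untemplated T: acgggttaggctcttgggagT
miR-125b-1-3p, 1 untemplated A: acgggttaggctcttgggagA
The form with T had 53 reads in the library labelled siSrf1 and 90 in the library labelled siSrf2, the form with A 26 and 55, and the untailed form 26 and 37. In all, 59.2% of its reads (51.8 to 66.4) in the library labelled siSrf1, against 68.9% (63.2 to 74.2) in the library labelled siSrf2 were tailed, with overlapping intervals. A single T made up 35.3% and 36.01%. Its 5' end was also the least uniform of the measured arms with at least 100 reads, with 85.3% and 89.9% at the main end. miR-99b-3p had 39.1% and 41.2% tailed reads, mostly with a single A (22.6% and 21.8%).

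**Figure D4:**
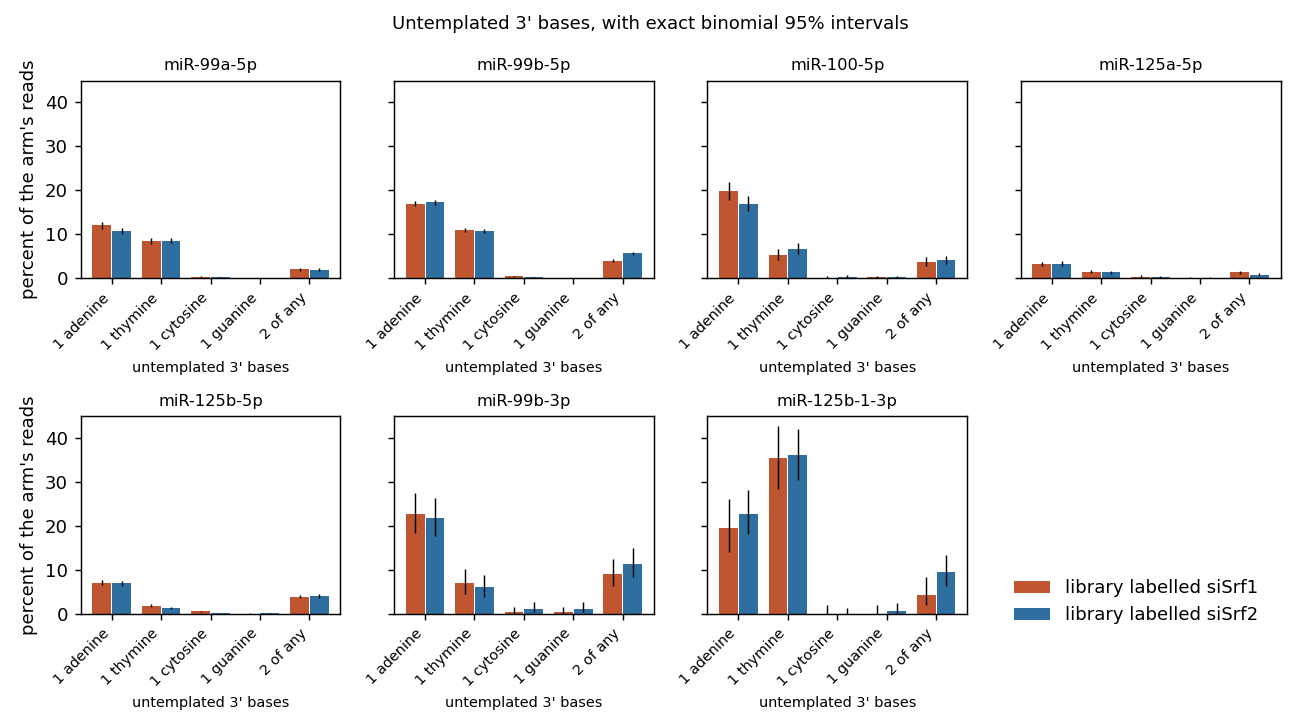
Percent of the reads of 7 member arms that end in 1 untemplated adenine, thymine, cytosine or guanine or in 2 untemplated bases, in the library labelled siSrf1 (left bars) and the library labelled siSrf2 (right bars), with exact binomial 95% intervals. A single adenine is the most frequent tail except in miR-125b-1-3p, where a single thymine makes up 35.3% and 36.01%.

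A base added to miR-125b-5p can tell its hairpins apart where it is templated in only 1 of them. The 4 forms with 1 added base, in capitals, are shown for that reason.
miR-125b-5p plus A: tccctgagaccctaacttgtgaA
miR-125b-5p plus C: tccctgagaccctaacttgtgaC
miR-125b-5p plus G: tccctgagaccctaacttgtgaG
miR-125b-5p plus T: tccctgagaccctaacttgtgaT
The T is templated in Mir125b-1 only, and that form had 31 reads in the library labelled siSrf1 and 48 in the library labelled siSrf2. The G is templated in Mir125b-2 only, with 1 and 10 reads. The A, templated in neither hairpin, had 593 and 634 reads, and the C, also templated in neither, 12 and 0 reads, where 0 reads allow a share of up to 0.0386%. A templated and an untemplated base of the same kind cannot be told apart, so these reads give no share of the hairpins.

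Sequencing errors were looked at because miR-99a-5p and miR-100-5p differ at a single position. The change T16A turns the main insert of miR-99a-5p into that of miR-100-5p, which had 718 reads in the library labelled siSrf1 and 944 in the library labelled siSrf2. The other changes at that position had far fewer reads, 5 and 8 for T16C and 3 and 3 for T16G. The most frequent change of miR-99a-5p that matches no hairpin was T7G, with 79 and 74 reads. T7G was also the most frequent change in miR-99b-5p (140 and 137 reads) and miR-100-5p (12 and 11 reads), which share this stretch of sequence, while A14C led in miR-125b-5p (124 and 92 reads) and C10A in miR-125a-5p (38 and 28 reads). Positions count from 1 at the 5' end, and the first 19 bases were examined. Reads with 1 such change, as a share of these and the unchanged reads, made up 11.1% of miR-99a-5p in the library labelled siSrf1 (10.2 to 12.1) and 9.32% in the library labelled siSrf2 (8.53 to 10.2). For miR-99b-5p the shares were 10.8% and 8.96%, for miR-125b-5p 12.3% and 10.1%, for miR-125a-5p 11.6% and 8.67%, and for miR-100-5p 11.1% and 10.4%. Over the 68 abundant miRNAs this share was larger in the library labelled siSrf1 in 63, with intervals apart in 37, and larger with intervals apart in the library labelled siSrf2 in 0. Such reads do not enter the counts above, and their part in the log2 ratios was not tested beyond the count with 1 mismatch.

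**Figure D5:**
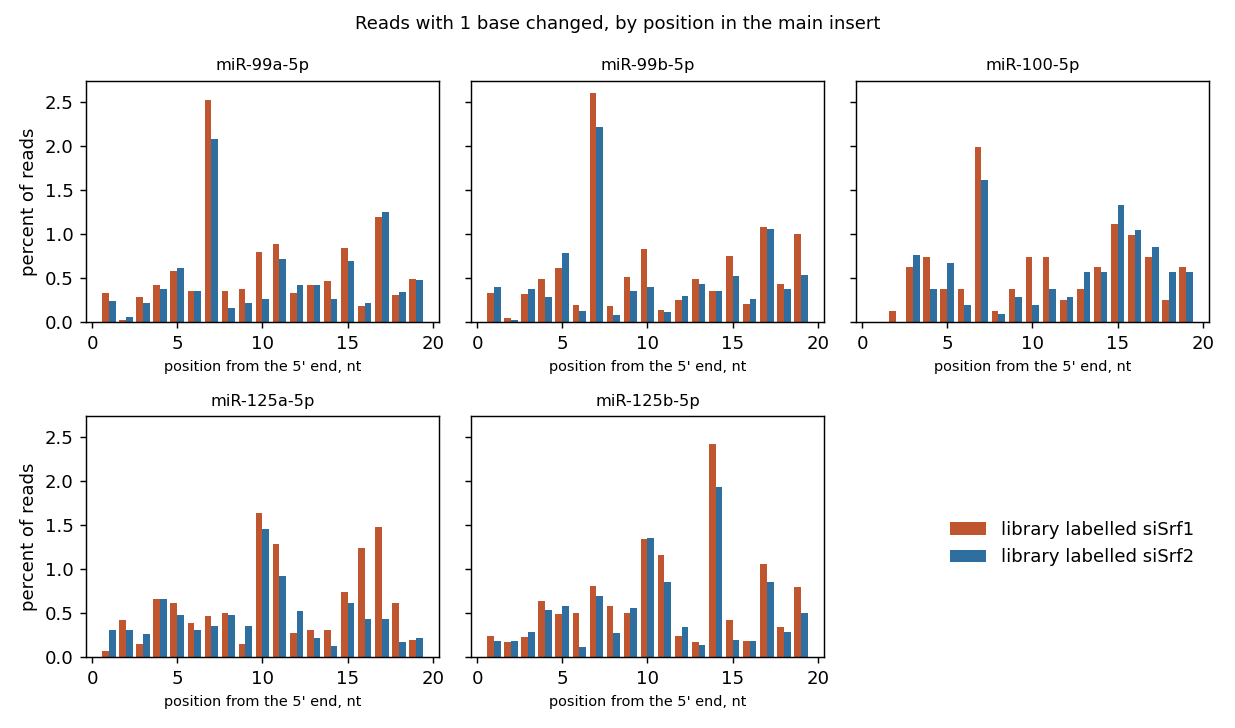
Percent of reads with 1 base changed at each of the first 19 positions of the main insert, among these and the unchanged reads, for the 5 member 5p arms in the library labelled siSrf1 (left bars) and the library labelled siSrf2 (right bars). Position 7 stands out in all arms of the miR-99/100 family, and position 14 in miR-125b-5p.

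Other miRNAs with the miR-125 seed were few. The only other one read was miR-351-5p, a rodent miRNA from the X chromosome, shown with its seed in capitals to compare with miR-125a-5p and miR-125b-5p above.
miR-351-5p: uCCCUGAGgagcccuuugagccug
It had 325 reads in the library labelled siSrf1 and 709 in the library labelled siSrf2, which is a log2 ratio of -1.32 (-1.52 to -1.13), past the size rule. miR-6367 and miR-6394, which carry the same seed, had 0 reads in both libraries. With these, the seed CCCUGAG was carried by 2556 RPM in the library labelled siSrf1 and 3146 in the library labelled siSrf2, and the seed ACCCGUA by 4179 and 5566. Among other miRNAs with 500 reads or more, those nearest in log2 ratio over the 2 libraries were miR-30e-5p, miR-222-3p and miR-340-5p for miR-99b-5p, within 0.02. For miR-125b-5p they were miR-106b-5p, miR-30e-3p and miR-29b-3p, within 0.01, and for miR-99a-5p miR-139-5p, miR-181a-5p and miR-208b-3p, within 0.02.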

How the data were processed

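The deposited tables list each distinct read sequence of a library with its count, raw by its values and called abundance per the file headers. Small RNA was prepared with a kit from Illumina and sequenced on a Genome Analyzer, per the labels' protocols. Which aligner, genome or read filter the authors used is not given in the sources used here.

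The 3' adapter was read from the data, as the sequence that follows let-7f-5p. Reads were cut at its first 8 nt without mismatch, or at a shorter match, down to 4 nt, where the read ended. This kept an insert of 15 nt or longer in 59.4% and 57.2% of reads. Hairpins came from GENCODE vM1 on NCBIM37 and from RefSeq hairpins matched to that genome. Inserts of 18 to 25 nt were placed on hairpins exactly, then with 1 to 2 untemplated 3' bases after at least 16 templated ones. An arm is set by its most frequent exactly matching insert, and an insert counted if it started within 2 nt and ended within 3 nt of it. The reads of an insert with several possible miRNAs were divided evenly among them.

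Counts were divided by all reads assigned to miRNAs in the library. The log2 ratio, siSrf1 over siSrf2, has a pseudocount of 0.5 reads and an exact binomial 95% interval given the sum of both counts. Shares carry Clopper-Pearson intervals and single counts Poisson intervals (Python 3.11.15, scipy 1.17.1, pandas 2.3.3). Ratios of arms within a library have intervals from the exact binomial of the pair, and differences between libraries have normal intervals of the log ratio. TMM factors came from edgeR 4.0.16 and size factors from DESeq2 1.42.0. Named are all member arms, the let-7 arms beside them, miRNAs with a member's seed, and the 3 miRNAs nearest in log2 ratio to each of the 3 most-read members. Members and lists were chosen with earlier results of these data known. On simulated data for the 261 measured miRNAs the size rule called 2.75% of 1.5-fold changes, found 98.2% of 3-fold changes and 100% of 6-fold changes with their direction, and called 0.199% of unchanged miRNAs. The simulated counts held Poisson error only, so these rates do not cover spread between libraries. All 514 simulated member inserts, built from the same arms that inserts are placed on, returned with their arm, ends and tail.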

Additional observations from a re-analysis of the deposited data

Results flagged for a closer look

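Reads outside the comparisons also held member sequences. A read that began with the main insert of a 5p arm but held no adapter match did not enter the counts. The labels do not settle whether either library is a control, and each number lies above the 3 reads that a count of 0 allows. In the library labelled siSrf1 there were 1464 such reads of miR-99b-5p, 1100 of miR-99a-5p, 769 of miR-125b-5p, 572 of miR-125a-5p and 163 of miR-100-5p. In the library labelled siSrf2 there were 1638, 1157, 738, 472 and 200, in the same order of arms. Set against these and the counted reads, the share ran from 8.06% (miR-125b-5p) to 12.7% (miR-99a-5p) in the library labelled siSrf1 and from 7.18% to 12.9% for the same arms in the library labelled siSrf2. This search was added once the share of reads without adapter was known.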

How the results depend on the processing

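No paired analysis was possible because a group holds 1 library. Whether members lay above or below 0 depends on the scaling. With TMM factors the log2 ratios of miR-99a-5p, miR-99b-5p, miR-99b-3p, miR-125a-5p and miR-125b-5p turned to 0.25, 0.0061, 0.13, 0.36 and 0.17. Median-of-ratios factors gave 0.19 for miR-99a-5p, 0.071 for miR-99b-3p, 0.30 for miR-125a-5p and 0.11 for miR-125b-5p, and the total without miR-1a-3p gave 0.13, 0.011, 0.24 and 0.050 for the same arms. The median of the 8 arms was -0.42 and became 0.068, 0.0091 and -0.051 under these 3 scalings and -0.32 with the total of all inserts of 15 nt or longer. Every such setting moves all miRNAs alike: the median of all measured miRNAs became 0.061, 0.0026, -0.058 and -0.32. Member arms past the rule numbered 0 at a minimum of 50 reads. Their number became 2 with at least 10 reads, where miR-99a-3p (-1.79, -3.11 to -0.71) and miR-125b-2-3p (-2.28, -3.94 to -1.06) enter, and was 0 under the other alternatives run. Without tailed reads the intervals of the Mir99a passenger share overlapped between the libraries, and with 1 mismatch allowed they did so, too. Those of the summed 3p arms of miR-125b also overlapped without tailed reads, and each Mir125b hairpin was not tested singly. The count past the size rule on the siSrf2 side was 66, but 37, 39 and 43 under the same 3 scalings, and 19 at a minimum of 500 reads, where fewer miRNAs remain to be counted. The number higher in the library labelled siSrf1 was 0 and became 3 under each of these 3 scalings. It became 1 with the total of all inserts, at least 10 reads, inserts of 20 to 24 nt, exact matches only, and sequences read once left out. The cause was not tested. Of arm shares, ends and tails under an alternative, those outside the interval of the value reported were 8 of 60 arm shares, 4 of 70 main 5' ends, 11 of 70 main 3' ends and 6 of 224 untemplated bases, all of them with exact matches only or without sequences read once, save both Mir99a shares with 1 mismatch. Inserts of 16 to 28 nt, arm shares with 1 mismatch and the other read minimums for member arms were chosen after seeing the data. Arms with under 50 reads (miR-99a-3p, miR-100-3p and miR-125b-2-3p) are limited by depth.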
